A study of Mus musculus with 24 samples.

Results

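Cdc20, Fzr1, Fbxo43, Fbxo5, Pttg1, Espl1, Ube2c and Ube2s encode the activators, inhibitors and ubiquitin-conjugating enzymes of the anaphase-promoting complex (APC/C), together with securin and separase. These 8 genes were taken by symbol from the 23235 genes of the deposited expression table, each with 1 row, and all 8 passed the filter on low values. The series holds 24 RNA-seq libraries of mouse oocytes and zygotes, 2 for each of 3 genotypes at 4 stages. The genotypes were Cnot6l-/-, Btg4-/- and WT, all of the C57BL/6 background at postnatal day 21. Fully grown oocytes at the germinal vesicle stage (GV) were taken 48 h after PMSG, and MI oocytes and MII eggs had then spent 8 h and 16 h in culture. Collection of zygotes followed hCG by 24 h, and both agents are gonadotropins. Time in culture changed with stage among GV, MI and MII, and none is given for zygotes. Stage and culture thus cannot be told apart in any comparison between stages. The labels describe neither the Cnot6l nor the Btg4 allele, and they do not say whether libraries came from separate animals, so p-values measure only the spread between libraries. The number of oocytes per library is given as 100 in the extraction protocol and as 2 in the design of the series.

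The APC/C is the ubiquitin ligase that starts anaphase. It works with a co-activator, either CDC20 or CDH1 (the product of Fzr1), and marks securin and cyclin B for destruction, which frees separase to cut cohesin. In mouse oocytes CDH1-bound APC/C acts during prophase arrest, CDC20 drives exit from meiosis I, and EMI2 (the product of Fbxo43) holds the MII egg in arrest by inhibiting the complex. CNOT6L is a deadenylase of the CCR4-NOT complex, which shortens poly(A) tails, and BTG4 is an adaptor that recruits that complex to maternal mRNAs as the oocyte matures.

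Cytoplasmic polyadenylation elements (CPEs), short U-rich motifs close to the polyadenylation signal, are known to control when stored oocyte mRNAs gain or lose their tails. For each gene the annotated coding transcript whose ends lay closest to those in the deposited table was taken. Its last 100 bases were searched on the sense strand for TTTTAT and TTTTAAT as CPEs and for AATAAA and ATTAAA as polyadenylation signals, motifs whose ends can overlap. A CPE lay in this window in Cdc20 and Fbxo5, 2 of 8 genes, against 17.0% of 18792 transcripts searched in the same way. A polyadenylation signal lay there in 7 of 8 genes, all but Fzr1, against 76.9% of all transcripts. Over the whole 3' untranslated region Fbxo43 held 6 CPE matches and Pttg1 1, all outside the window. Cdc20 and Fbxo5 held 2 each and the remaining genes 0. The share of all transcripts was not counted for that region. The stretches below show the CPEs that Cdc20 and Fbxo5 have in the window. They also show the signals of the most abundant transcript (Pttg1) and of the one with the widest gap between genotypes at MII (Ube2c). Capitals mark the motifs, and the sequences come from the mm9 genome with the GENCODE M1 annotation.
Cdc20 CPEs and signal, chr4:118105519-118105548, minus strand: tgtTTTTATTTTATtttttctAATAAAgtt
Fbxo5 CPE, chr10:4547286-4547315, plus strand: aatgtgagttttTTTTATatctgtgaatac
Pttg1 signal, chr11:43233773-43233802, minus strand: gtatgttgtattAATAAAgcatttgtgcat
Ube2c signal, chr2:164598366-164598395, plus strand: caatgtatattaAATAAAtacacattgatt
In Cdc20 the 2 CPEs overlapped by 1 base and stood just before the signal, with 7 bases between the last CPE and the hexamer. In Fbxo5 the CPE of the window and the signal lay 61 bases apart. A match describes these letters only and was not tested as a working element.

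The deposited values are FPKM, which are scaled to transcript length. Their sum per library was not constant and was 49930 to 76038 in WT zygotes, against 451732 to 543648 in WT GV oocytes. Each result is therefore given for the FPKM as deposited and, where it matters, after median-ratio scaling, which divides each library by its median ratio to the average library over the 3677 genes above 1 FPKM everywhere. The log2 change of the median tested gene from GV to MII in WT was -1.37 as deposited and -0.37 after scaling. Differences are changes of log2(FPKM + 1) with the SE from limma, fitted over all 24 libraries with 2 per group. A difference passed, or was called, at a Benjamini-Hochberg adjusted p under 0.05 over the 10884 genes tested. Where leaving out 1 library ended a call made as deposited for 1 of the 8 genes, that library is named, and MI libraries carry the numbers 2 and 3. Higher and lower below refer to FPKM, and less RNA in an oocyte cannot be told apart from a changed efficiency of capture. The Cnot6l transcript was lower in Cnot6l-/- than in WT oocytes at GV, MI and MII (log2 differences -2.84, -1.81 and -1.94, adjusted p = 0.0073, 0.022 and 0.021). Each of these 3 calls was lost without at least 1 library, with the adjusted p reaching 0.12, 0.11 and 0.14. In zygotes the difference was -1.32 as deposited (adjusted p = 0.27). The Cnot6l transcript was called lower in Cnot6l-/- at GV, MI, MII and in zygotes after scaling. The scaled log2 differences were -2.60, -2.59, -2.77 and -1.9975 (adjusted p = 0.0021, 0.00037, 0.00024 and 0.0092). The Btg4 transcript averaged in libraries labelled Btg4-/- 2078 FPKM at GV, 1538 at MI, 1302 at MII and 985 in zygotes, against 2305, 1047, 1035 and 664 FPKM in WT. It passed at no stage as deposited and was lower at MI after scaling (-0.65, adjusted p = 0.017). After scaling the Btg4 transcript was also lower at MI in Cnot6l-/- (-0.87, adjusted p = 0.0024). The labels do not say which part of Btg4 was altered, so its level does not check them. The group labelled Btg4-/- is called by its label here. All 9 oocyte markers were above 0 in every library.

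**Figure D1:**
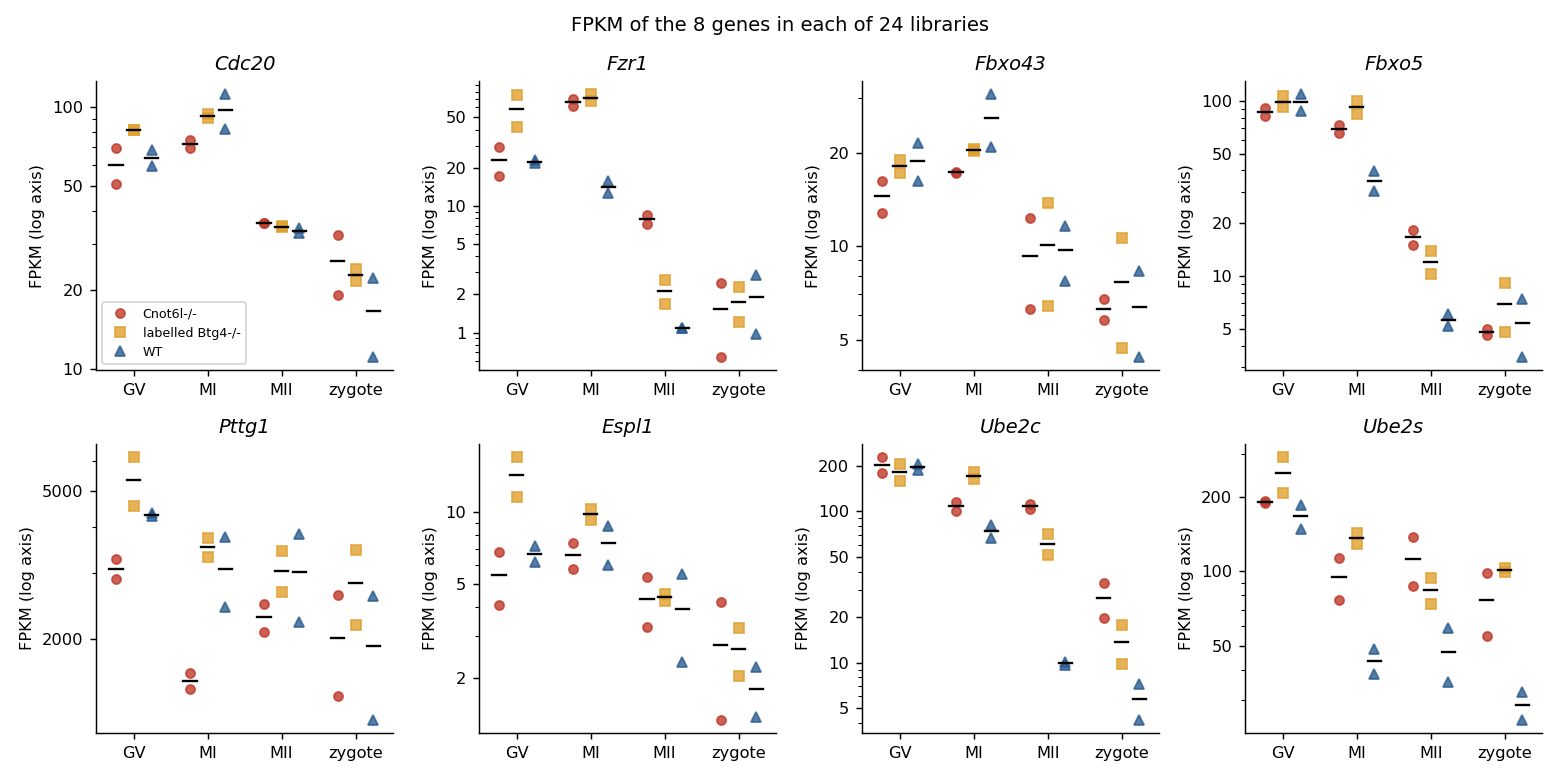
FPKM on a log axis of each gene in each library at GV, MI, MII and in zygotes, with Cnot6l-/- as circles, libraries labelled Btg4-/- as squares and WT as triangles (2 libraries each; black bars are means). Fzr1, Fbxo5 and Ube2c were lower at MII than at GV in every genotype as deposited, but after scaling Ube2c in Cnot6l-/- lay above 0 (0.13), and Fzr1 in Cnot6l-/- (-0.44) and Ube2c in the group labelled Btg4-/- (-0.34) did not pass. The Ube2c values at MII of Cnot6l-/- eggs (112 and 104 FPKM) lay far above those of WT eggs (9.66 and 10.1 FPKM), while the lowest Pttg1 value of the 24 libraries was 1211 FPKM.

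Of the co-activator transcripts, Cdc20 differed little between genotypes as deposited and Fzr1 much. Cdc20 (chromosome 4, 118105506 to 118109948, minus strand, mm9) had at GV 50.8 and 69.4 FPKM in Cnot6l-/- oocytes, 81.2 and 81.2 in oocytes labelled Btg4-/- and 59.4 and 68.5 in WT oocytes. At MI Cdc20 had 69.3 and 74.7 FPKM in Cnot6l-/- oocytes, 90.4 and 93.4 in oocytes labelled Btg4-/- and 112 and 82.2 in WT oocytes. The MI mean was the highest of the 4 stages in every genotype, and the WT libraries at MI spread most. At MII Cdc20 had 36.1 and 36.1 FPKM in Cnot6l-/- eggs, 35 and 34.7 in eggs labelled Btg4-/- and 33 and 34.5 in WT eggs, the 6 libraries lying within a narrow band. In zygotes Cdc20 had 19.2 and 32.6 FPKM in Cnot6l-/- zygotes, 21.6 and 24.1 in zygotes labelled Btg4-/- and 11.1 and 22.2 in WT zygotes, the pairs of Cnot6l-/- and of WT spreading widely and the libraries labelled Btg4-/- lying close. In WT, Cdc20 was lower at MII than at MI, with a log2 change of -1.48 ± 0.31 (SE, adjusted p = 0.0014) that was -0.82 (adjusted p = 0.13) after scaling. Against GV it was lower at MII as deposited (-0.90 ± 0.31 SE, adjusted p = 0.013), but this turned to 0.99 (adjusted p = 0.039) after scaling. The deposited call was lost without WT GV library 2 or WT MII library 1 (-0.87 to -0.80, adjusted p = 0.052 to 0.066). Cdc20 passed in none of the 8 comparisons of a knockout with WT as deposited. After scaling it was lower at MI, at -1.34 (adjusted p = 0.01) in Cnot6l-/- and -1.26 (adjusted p = 0.016) in the libraries labelled Btg4-/-.

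Fzr1 (chromosome 10, 80829624 to 80841115, minus strand) encodes CDH1. At GV it had 17.1 and 29.2 FPKM in Cnot6l-/- oocytes, 75.1 and 41.8 in oocytes labelled Btg4-/- and 21.8 and 22.9 in WT oocytes. At MI Fzr1 had 61.5 and 70.2 FPKM in Cnot6l-/- oocytes, 76.4 and 66.9 in oocytes labelled Btg4-/- and 15.8 and 12.6 in WT oocytes. All 4 knockout libraries at MI thus stood far above both WT libraries. At MII Fzr1 had 7.18 and 8.48 FPKM in Cnot6l-/- eggs, 1.68 and 2.59 in eggs labelled Btg4-/- and 1.09 and 1.08 in WT eggs, and Cnot6l-/- eggs lay above the other groups without overlap. In zygotes Fzr1 had 0.64 and 2.45 FPKM in Cnot6l-/- zygotes, 1.21 and 2.28 in zygotes labelled Btg4-/- and 0.98 and 2.87 in WT zygotes, and the 3 genotypes overlapped. From MI to MII Fzr1 fell in every genotype, with log2 changes of -2.92 ± 0.39 (SE, adjusted p = 8.9e-06) in Cnot6l-/-, -4.55 ± 0.39 (SE, adjusted p = 3e-08) in the group labelled Btg4-/- and -2.86 ± 0.39 (SE, adjusted p = 3.3e-05) in WT. All 3 falls also passed after scaling. From GV to MI it rose in Cnot6l-/- (1.51 ± 0.39 SE with adjusted p = 0.014, and 1.71 with adjusted p = 0.029 after scaling), a call that was lost without Cnot6l-/- GV library 1 or Cnot6l-/- MI libraries 2 or 3 (1.14 to 1.60, adjusted p = 0.055 to 0.14). Against WT, Fzr1 was higher in Cnot6l-/- at MI (2.14 ± 0.39 SE, adjusted p = 0.00013) and at MII (2.08 ± 0.39 SE, adjusted p = 0.00034). It was higher in the group labelled Btg4-/- at MI (2.26 ± 0.39 SE, adjusted p = 7.1e-05), whereas its MII difference of 0.57 ± 0.39 (SE, adjusted p = 0.31) did not pass. After scaling, the call in Cnot6l-/- eggs at MII held (1.61, adjusted p = 0.019) and both MI differences missed the threshold (1.23 with adjusted p = 0.062 and 1.07 with adjusted p = 0.11).

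Of the inhibitors, Fbxo43 differed little between genotypes as deposited, and Fbxo5 was higher in the knockouts at MI and MII. Fbxo43 (chromosome 15, 36079815 to 36094639, minus strand), which encodes EMI2, ranged from 4.4 to 30.9 FPKM over all libraries. At GV it had 16.2 and 12.8 FPKM in Cnot6l-/- oocytes, 19 and 17.3 in oocytes labelled Btg4-/- and 21.5 and 16.2 in WT oocytes. At MI Fbxo43 had 17.3 and 17.3 FPKM in Cnot6l-/- oocytes, 20.6 and 20.3 in oocytes labelled Btg4-/- and 30.9 and 20.8 in WT oocytes, both WT libraries lying above the 4 knockout libraries. At MII it had 12.3 and 6.26 FPKM in Cnot6l-/- eggs, 13.8 and 6.4 in eggs labelled Btg4-/- and 11.7 and 7.74 in WT eggs, with the 3 genotypes overlapping. In zygotes Fbxo43 had 6.77 and 5.77 FPKM in Cnot6l-/- zygotes, 10.6 and 4.71 in zygotes labelled Btg4-/- and 8.32 and 4.4 in WT zygotes, where they overlapped again. In WT it was lower at MII than at MI (-1.33 ± 0.40 SE, adjusted p = 0.017), a call lost without WT MI library 2 or WT MII library 2 (-1.06 to -1.05, adjusted p = 0.14 to 0.17). Against GV it was lower at MII as deposited (-0.90 ± 0.40 SE, adjusted p = 0.046) and higher after scaling (0.90, adjusted p = 0.0082). The deposited call depended on 13 of 24 libraries. It was lost without WT GV libraries 1 or 2, WT MII library 2, Cnot6l-/- GV libraries 1 or 2, Cnot6l-/- MI libraries 2 or 3, Cnot6l-/- zygote libraries 1 or 2, Btg4-/- GV libraries 1 or 2 or Btg4-/- MI libraries 2 or 3 (-1.10 to -0.64, adjusted p = 0.05 to 0.24). No difference of a knockout from WT passed as deposited. After scaling Fbxo43 was lower at MI in Cnot6l-/- (-1.41, adjusted p = 0.00038) and in the group labelled Btg4-/- (-1.45, adjusted p = 0.00039), and at MII in Cnot6l-/- (-0.87, adjusted p = 0.014).

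Fbxo5 (chromosome 10, 4541076 to 4547383, plus strand) encodes EMI1, the inhibitor of the APC/C in mitotic interphase, which also acts in mouse oocytes on the way into meiosis I. At GV it had 82 and 91.4 FPKM in Cnot6l-/- oocytes, 92.3 and 106 in oocytes labelled Btg4-/- and 109 and 88 in WT oocytes. Each knockout overlapped WT, while Cnot6l-/- lay below the group labelled Btg4-/-. At MI it had 72.5 and 65.8 FPKM in Cnot6l-/- oocytes, 84.4 and 99.2 in oocytes labelled Btg4-/- and 39.7 and 30.4 in WT oocytes. Each of the 4 knockout libraries at MI exceeded both WT libraries. At MII Fbxo5 had 18.3 and 15 FPKM in Cnot6l-/- eggs, 13.8 and 10.2 in eggs labelled Btg4-/- and 5.19 and 6.03 in WT eggs, which placed the groups in the order Cnot6l-/-, labelled Btg4-/- and WT, from high to low and without overlap. In zygotes it had 4.59 and 4.95 FPKM in Cnot6l-/- zygotes, 9.09 and 4.78 in zygotes labelled Btg4-/- and 7.36 and 3.44 in WT zygotes, and the groups overlapped. In WT it fell from GV to MI, with a log2 change of -1.47 ± 0.32 (SE, adjusted p = 0.00063) that was -0.23 (adjusted p = 0.38) after scaling. It fell further from MI to MII (-2.44 ± 0.32 SE, adjusted p = 2.1e-05), also after scaling (-1.87, adjusted p = 7.8e-06). The mean at MII was 19.2% of the GV mean in Cnot6l-/-, 12.1% in the group labelled Btg4-/- and 5.69% in WT as deposited. After scaling these shares were 39.2%, 28.5% and 21.9%. Fbxo5 fell from MII to zygote in Cnot6l-/- (-1.61 ± 0.32 SE, adjusted p = 0.00097), also after scaling (-1.02, adjusted p = 0.0016).

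Against WT, Fbxo5 was higher in Cnot6l-/- at MI (0.97 ± 0.32 SE, adjusted p = 0.013) and at MII (1.42 ± 0.32 SE, adjusted p = 0.0015). In the group labelled Btg4-/- it was higher at MI (1.37 ± 0.32 SE, adjusted p = 0.001) and at MII (0.97 ± 0.32 SE, adjusted p = 0.029). Only the MII difference of Cnot6l-/- held after scaling (0.69, adjusted p = 0.011). The other scaled differences were 0.04 (adjusted p = 0.88) in Cnot6l-/- at MI, and 0.17 (adjusted p = 0.52) and 0.33 (adjusted p = 0.24) at MI and MII in the group labelled Btg4-/-. In Cnot6l-/- zygotes Fbxo5 was lower than in WT after scaling (-0.68, adjusted p = 0.03) and did not pass as deposited. The MI call in Cnot6l-/- was lost without WT MI library 3 or Cnot6l-/- MI library 2 (0.78 to 0.90, adjusted p = 0.071 to 0.11). The MII call in the group labelled Btg4-/- was lost without WT MII libraries 1 or 2 or Btg4-/- MII library 1 (0.77 to 1.06, adjusted p = 0.077 to 0.23).

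Securin was by far the most abundant transcript of the 8. Pttg1 (chromosome 11, 43233750 to 43239483, minus strand) ranked between 1 and 13 among all genes in every library. At GV it had 2892 and 3266 FPKM in Cnot6l-/- oocytes, 4535 and 6164 in oocytes labelled Btg4-/- and 4342 and 4286 in WT oocytes. At MI it had 1613 and 1466 FPKM in Cnot6l-/- oocytes, 3316 and 3738 in oocytes labelled Btg4-/- and 3748 and 2431 in WT oocytes. Cnot6l-/- oocytes lay below both other genotypes at these stages, without overlap. At MII Pttg1 had 2091 and 2482 FPKM in Cnot6l-/- eggs, 3432 and 2663 in eggs labelled Btg4-/- and 2225 and 3821 in WT eggs, and in zygotes 1399 and 2615 FPKM in Cnot6l-/- zygotes, 3456 and 2176 in zygotes labelled Btg4-/- and 2608 and 1211 in WT zygotes. At MII both knockouts overlapped WT and Cnot6l-/- lay below the group labelled Btg4-/-, and in zygotes all 3 genotypes overlapped. No stage change of Pttg1 passed in any genotype as deposited, and in WT its change from GV to MII was -0.56 ± 0.39 (SE, adjusted p = 0.18) as deposited and 1.37 (adjusted p = 0.00083) after scaling. After scaling it was also higher at MII than at MI in Cnot6l-/- (1.35, adjusted p = 0.0023) and in the group labelled Btg4-/- (0.95, adjusted p = 0.018). The difference of Cnot6l-/- from WT at MI passed both as deposited (-0.97 ± 0.39 SE, adjusted p = 0.04) and after scaling (-1.92, adjusted p = 6.9e-05). As deposited it was lost without WT MI library 2, Cnot6l-/- MI libraries 2 or 3 or Btg4-/- MI libraries 2 or 3 (-1.04 to -0.66, adjusted p = 0.051 to 0.25). At MII the difference of Cnot6l-/- was -0.36 ± 0.39 (SE, adjusted p = 0.49) as deposited and -1.19 (adjusted p = 0.0039) after scaling.

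Separase, the protease that securin holds in check, had the lowest median level of the 8 genes. Espl1 (chromosome 15, 102126724 to 102154787, plus strand) ranged from 1.33 to 17.2 FPKM. At GV it had 4.07 and 6.81 FPKM in Cnot6l-/- oocytes, 17.2 and 11.6 in oocytes labelled Btg4-/- and 7.18 and 6.16 in WT oocytes, the libraries labelled Btg4-/- lying above the other groups. At MI Espl1 had 5.78 and 7.46 FPKM in Cnot6l-/- oocytes, 9.32 and 10.3 in oocytes labelled Btg4-/- and 8.79 and 6.02 in WT oocytes, those labelled Btg4-/- again lying above the other groups. At MII it had 3.28 and 5.32 FPKM in Cnot6l-/- eggs, 4.52 and 4.23 in eggs labelled Btg4-/- and 2.33 and 5.48 in WT eggs, with the groups overlapping. In zygotes Espl1 had 1.33 and 4.2 FPKM in Cnot6l-/- zygotes, 2.04 and 3.24 in zygotes labelled Btg4-/- and 1.37 and 2.23 in WT zygotes. For the group labelled Btg4-/-, Espl1 was lower at MII than at GV as deposited (-1.49 ± 0.38 SE, adjusted p = 0.0023) but not after scaling (-0.38, adjusted p = 0.58). No stage change passed in Cnot6l-/- or WT as deposited, and in none of the 8 comparisons with WT did Espl1 pass on either scale. In WT oocytes at MI, Pttg1 averaged 3089 ± 931 FPKM and Espl1 7.41 ± 1.96 FPKM (SD, n = 2).

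The ubiquitin-conjugating enzyme Ube2c had the widest difference from WT of the 8 genes. UBE2C places the first ubiquitins on APC/C substrates. Its gene (chromosome 2, 164595429 to 164598402, plus strand) had at GV 179 and 229 FPKM in Cnot6l-/- oocytes, 159 and 207 in oocytes labelled Btg4-/- and 205 and 187 in WT oocytes, with the groups overlapping. At MI it had 115 and 101 FPKM in Cnot6l-/- oocytes, 163 and 182 in oocytes labelled Btg4-/- and 81.2 and 67 in WT oocytes. At MII it had 112 and 104 FPKM in Cnot6l-/- eggs, 70.9 and 51.2 in eggs labelled Btg4-/- and 9.66 and 10.1 in WT eggs, so that every Cnot6l-/- library exceeded every library labelled Btg4-/- and these exceeded WT. In zygotes it had 19.7 and 33.7 FPKM in Cnot6l-/- zygotes, 17.6 and 9.86 in zygotes labelled Btg4-/- and 7.26 and 4.19 in WT zygotes, again with Cnot6l-/- highest and WT lowest without overlap. The MII mean was 53% of the GV mean in Cnot6l-/-, 33.4% in the group labelled Btg4-/- and 5.03% in WT as deposited. After scaling these shares were 109%, 78.3% and 19.2%. From MI to MII the change of Ube2c was 0.01 ± 0.33 (SE, adjusted p = 1) in Cnot6l-/-, while it fell in the group labelled Btg4-/- (-1.50 ± 0.33 SE, adjusted p = 0.00068) and in WT (-2.78 ± 0.33 SE, adjusted p = 9e-06). After scaling, Cnot6l-/- was higher at MII than at MI (0.78, adjusted p = 0.0097), the fall of the group labelled Btg4-/- did not pass (-0.34, adjusted p = 0.23), and that of WT held (-2.17, adjusted p = 3.7e-06). On that scale Ube2c in Cnot6l-/- was lower at MI than at GV (-0.66, adjusted p = 0.037). Its change from GV to MII there was 0.13 (adjusted p = 0.71). From MII to zygote it fell in Cnot6l-/- (-2.03 ± 0.33 SE, adjusted p = 0.00019) and in the group labelled Btg4-/- (-2.11 ± 0.33 SE, adjusted p = 0.003), in both also after scaling (-1.35 with adjusted p = 0.00027 and -1.79 with adjusted p = 0.00026). The fall in the group labelled Btg4-/- was lost as deposited without Btg4-/- MII library 1 or Btg4-/- zygote library 2 (-1.88 to -1.72, adjusted p = 0.053 to 0.074).

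Against WT, Ube2c was higher in Cnot6l-/- at MII (3.33 ± 0.33 SE, adjusted p = 6e-07) and in zygotes (2.03 ± 0.33 SE, adjusted p = 0.00088). Both differences held after scaling, at 2.56 (adjusted p = 2.4e-07) and 1.50 (adjusted p = 0.00019). In the group labelled Btg4-/- it was higher at MI (1.21 ± 0.33 SE, adjusted p = 0.0036), at MII (2.49 ± 0.33 SE, adjusted p = 2.7e-05) and in zygotes (1.12 ± 0.33 SE, adjusted p = 0.021). Of these 3 the MII difference held after scaling (1.83, adjusted p = 1.1e-05), and the MI and zygote differences became 0.00 (adjusted p = 1) and 0.33 (adjusted p = 0.33). The zygote call was lost without WT zygote library 2 or Btg4-/- zygote library 1 (0.73 to 0.78, adjusted p = 0.23 to 0.28).

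UBE2S extends the chains that UBE2C begins. The Ube2s transcript has 1 further place in the genome that matches 100.0% of its length at 99.9% identity, so its FPKM are uncertain where reads were shared with that copy. It (chromosome 7, 4759616 to 4763942, minus strand) had at GV 193 and 189.7 FPKM in Cnot6l-/- oocytes, 208 and 291 in oocytes labelled Btg4-/- and 186 and 149 in WT oocytes. At MI it had 113 and 76.5 FPKM in Cnot6l-/- oocytes, 129 and 144 in oocytes labelled Btg4-/- and 48.4 and 38.3 in WT oocytes. At MII it had 87.4 and 138 FPKM in Cnot6l-/- eggs, 73.8 and 94.3 in eggs labelled Btg4-/- and 35.6 and 58.7 in WT eggs. In zygotes it had 54.5 and 99 FPKM in Cnot6l-/- zygotes, 99.6 and 103 in zygotes labelled Btg4-/- and 32.5 and 25 in WT zygotes. From MI on, every knockout library stood above both WT libraries of its stage. Against WT it was higher in Cnot6l-/- at MI (1.09 ± 0.35 SE, adjusted p = 0.012), MII (1.24 ± 0.35 SE, adjusted p = 0.0078) and zygote (1.34 ± 0.35 SE, adjusted p = 0.023). In the group labelled Btg4-/- it was higher at MI (1.64 ± 0.35 SE, adjusted p = 0.00054) and in zygotes (1.79 ± 0.35 SE, adjusted p = 0.0013). None of these 5 calls held after scaling, where the differences were 0.16 to 0.92. The 3 calls in Cnot6l-/- were each lost without 1 library. At MI this happened without WT MI library 3 or Cnot6l-/- MI library 2 (0.81 to 0.93, adjusted p = 0.091 to 0.12), at MII without WT MII library 1 or Cnot6l-/- MII library 2 (0.89 to 0.92, adjusted p = 0.087 to 0.11) and in zygotes without WT zygote library 2 or Cnot6l-/- zygote library 2 (0.91 to 1.15, adjusted p = 0.16 to 0.32).

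In WT more of the 8 genes fell between MI and MII than between GV and MI. From GV to MI 3 of 8 were lower (Fbxo5, Ube2c and Ube2s), against 65.1% of all 10884 genes tested. At MII 5 of 8 were lower than at MI (Cdc20, Fzr1, Fbxo43, Fbxo5 and Ube2c; 32.6% of all genes), and 6 of 8 lower than at GV (83.4% of all genes), the same 5 and Ube2s, of which Cdc20, Fbxo43 and Ube2s were above 0 after scaling (0.99, 0.90 and 0.07). Of the 5 falls from MI, those of Fzr1, Fbxo5 and Ube2c passed after scaling (25.1% of all genes). The median log2 change of the 8 from MI to MII was -1.40, beside -0.44 over all genes, while from GV to MI it was -0.57 beside -0.95. From MII to zygote none of the 8 passed in WT by limma, although Cdc20 and Ube2c were lower at an unadjusted p under 0.05 (1.04% of all genes were higher and 3.22% lower). After scaling, 3 genes were lower at MII than at GV, namely Fzr1, Fbxo5 and Ube2c (43.2% of all genes), and 3 were higher, namely Cdc20, Fbxo43 and Pttg1 (14.9%). Cdc20, Fbxo43, Pttg1 and Espl1 were higher at MI than at GV on that scale, Pttg1 having a change of -0.52 as deposited and 0.75 after scaling (15.2%), and none was lower (30.5%).

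In Cnot6l-/- 1 gene, Fzr1, was higher and 1, Ube2s, lower at MI than at GV (8.37% and 15% of all genes). The Ube2s call there was lost without WT MI libraries 2 or 3, Cnot6l-/- GV libraries 1 or 2, Cnot6l-/- MI libraries 2 or 3 or Btg4-/- MI libraries 2 or 3 (-1.31 to -0.75, adjusted p = 0.05 to 0.29). Cdc20, Fzr1 and Fbxo5 were lower at MII than at MI (54.3% of all genes), the Cdc20 call being -0.20 (adjusted p = 0.73) after scaling and lost as deposited without Cnot6l-/- MI library 3 or Cnot6l-/- MII library 2 (-0.98 to -0.92, adjusted p = 0.054 to 0.071). Fzr1, Fbxo5 and Ube2c were lower in Cnot6l-/- eggs than at GV (59.9%), and the same 3 were lower in zygotes than in eggs (28.7%). After scaling only Fbxo5 was called lower in eggs than at GV (23.4% of all genes). Fzr1 had -1.41 as deposited and -0.44 (adjusted p = 0.58) after scaling, and Ube2c -0.90 and 0.13 (adjusted p = 0.71). Without Cnot6l-/- GV library 2 the fall of Fzr1 from GV to MII was -1.04 (adjusted p = 0.075), and that of Ube2c was lost without Cnot6l-/- GV library 2 or Cnot6l-/- MII libraries 1 or 2 (-0.95 to -0.72, adjusted p = 0.059 to 0.16). Within the group labelled Btg4-/- none passed by limma between GV and MI, and Ube2s was lower at an unadjusted p under 0.05 (0.404% higher and 1.26% lower among all genes). At MII 6 of 8 were lower than at MI (69.3% of all genes; Cdc20, Fzr1, Fbxo43, Fbxo5, Espl1 and Ube2c) and 6 of 8 lower than at GV (75.3%), with Ube2s in place of Fbxo43. After scaling, only Fzr1 and Fbxo5 were called lower, from MI (30.6%) and from GV (29.7%). The falls of Fbxo43 and Espl1 from MI became 0.04 and 0.0055, and those of Cdc20 and Ube2c -0.22 (adjusted p = 0.7) and -0.34 (adjusted p = 0.23). From GV, Cdc20 became 0.03, and Espl1, Ube2c and Ube2s -0.38, -0.34 and -0.31 (adjusted p = 0.58, 0.26 and 0.59). Among the falls from MI, that of Fbxo43 (-1.04, adjusted p = 0.03) was lost without Btg4-/- MI libraries 2 or 3 or Btg4-/- MII library 2 (-1.05 to -0.54, adjusted p = 0.089 to 0.35). That of Espl1 (-1.01, adjusted p = 0.027) was lost without Btg4-/- MI libraries 2 or 3 or Btg4-/- MII libraries 1 or 2 (-1.07 to -0.94, adjusted p = 0.059 to 0.11). Ube2c alone was lower in zygotes than in eggs (1.07% of all genes).

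**Figure D2:**
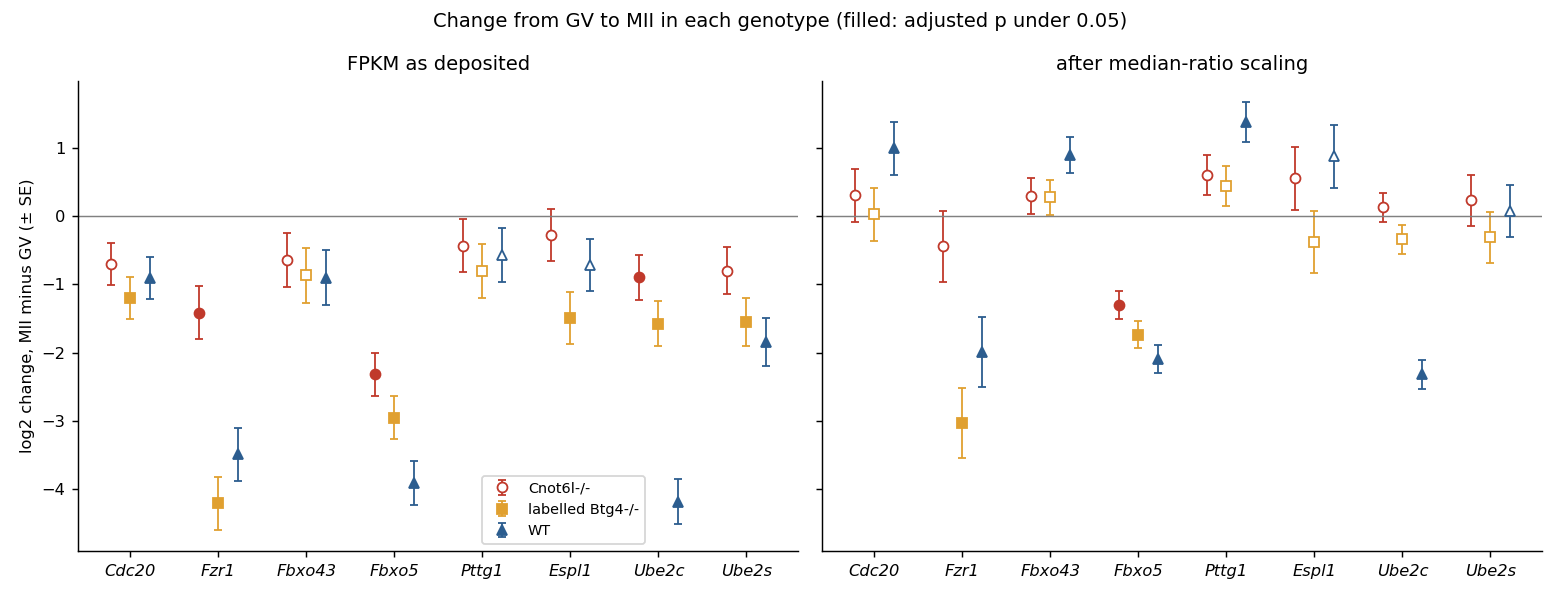
Log2 change of FPKM + 1 from GV to MII (MII minus GV, ± SE, 2 libraries a group) for each gene in Cnot6l-/- (circles), the group labelled Btg4-/- (squares) and WT (triangles), as deposited on the left and after median-ratio scaling on the right, with filled symbols for adjusted p under 0.05. The change of Ube2c was -0.90 in Cnot6l-/-, -1.57 in the group labelled Btg4-/- and -4.18 in WT, and after scaling it lay above 0 in Cnot6l-/- alone (0.13). On that scale Cdc20, Fbxo43 and Pttg1 lay above 0 in every genotype and were called in WT only. Espl1 and Ube2s lay above 0 in Cnot6l-/- and WT, without a call.

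At GV no gene of the set passed between either knockout and WT by limma (6.06% of all genes were higher and 3.02% lower in Cnot6l-/-, and 6.1% and 1.33% in the group labelled Btg4-/-). At an unadjusted p under 0.05, Fzr1 and Espl1 were higher at GV in the group labelled Btg4-/-, and no gene in Cnot6l-/-. The largest difference there was Fzr1 in the group labelled Btg4-/- (1.29 ± 0.39 SE, adjusted p = 0.053). In Cnot6l-/- at MI 3 of 8 were higher than in WT (Fzr1, Fbxo5 and Ube2s; 60.3% of all genes) and Pttg1 lower (1.3%). At MII 4 of 8 were higher (Fzr1, Fbxo5, Ube2c and Ube2s; 44.3%), and in zygotes Ube2c and Ube2s (8%). None of the 8 was lower at these stages (0.671% of all genes at MII and 0.413% in zygotes). In the group labelled Btg4-/- 4 of 8 were higher at MI (Fzr1, Fbxo5, Ube2c and Ube2s; 68.7%), Fbxo5 and Ube2c at MII (28.3%) and Ube2c and Ube2s in zygotes (21.5%). None was lower in that group (0.34% to 1.33% of all genes at GV, MI and MII, and 0.0459% in zygotes). The share of the 8 that was higher at MI thus stood below the share of all genes in both knockouts. The median difference of the 8 at MI was 0.20 in Cnot6l-/- and 0.80 in the libraries labelled Btg4-/-, beside 0.87 and 0.99 over all genes. Both knockouts were compared with the same WT libraries.

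After scaling, Cdc20, Fbxo43 and Pttg1 were lower at MI in both knockouts, where Pttg1 had 0.22 as deposited and -1.0 after scaling in the group labelled Btg4-/- (11% of all genes in Cnot6l-/- and 9.82% in the libraries labelled Btg4-/-). At MII Fzr1, Fbxo5 and Ube2c were higher in Cnot6l-/- (34.3%) and Fbxo43 and Pttg1 lower (8.69%). In eggs labelled Btg4-/- Ube2c alone was higher (21.8%) and none lower (6.55%). In Cnot6l-/- zygotes Ube2c was higher (8%) and Fbxo5 lower (7.91%), and in zygotes labelled Btg4-/- none passed (11.7% higher and 3.04% lower among all genes).

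Summed markers of other cells were far below those of oocytes, and some differed between genotypes. The summed FPKM of 10 cumulus and granulosa markers in eggs was 8.27 to 13.3 in Cnot6l-/-, 3.07 to 5.81 in the group labelled Btg4-/- and 5 to 5.35 in WT, and at MI it was 16 to 16.1 in Cnot6l-/-, 11.2 to 13.4 in the group labelled Btg4-/- and 7.09 to 8.81 in WT. At GV it was 26.4 to 28.7 in Cnot6l-/-, 16.2 to 20.1 in the group labelled Btg4-/- and 19.5 to 25.7 in WT. Of these 10, 7 were above 0 in both egg libraries of Cnot6l-/-, 7 in those labelled Btg4-/- and 5 in those of WT. Foxl2, a defining gene of granulosa cells, was at 0 in all 6 egg libraries. Of 5 tested, 2 were higher than WT in Cnot6l-/- eggs (Cyp19a1, the gene of the oestrogen-making enzyme, led with 0.85, adjusted p = 0.019) and 0 in eggs labelled Btg4-/-. Among all genes 44.3% were higher in Cnot6l-/- eggs and 28.3% in eggs labelled Btg4-/-. Sums of 7 sperm and testis markers in eggs were 16.8 to 17.1 in Cnot6l-/-, 2.74 to 6.03 in the group labelled Btg4-/- and 0.82 to 1.48 in WT, with Tnp1 at 0. Of 3 tested, 3 were higher than WT in Cnot6l-/- eggs and 1 in eggs labelled Btg4-/-, beside the same 44.3% and 28.3% of all genes. Ldhc, a lactate dehydrogenase gene, led in both (3.2 and 1.26, adjusted p = 1.8e-06 and 0.012). In Cnot6l-/- oocytes 2 of 3 were also higher at GV (6.06% of all genes). At GV these sums were 63.5 to 81.2 in Cnot6l-/-, 35.1 to 56.8 in the group labelled Btg4-/- and 31.3 to 31.5 in WT. At MI these sums were 31.4 to 34.9 in Cnot6l-/-, 25.9 to 29.2 in the group labelled Btg4-/- and 4.01 to 4.22 in WT. Those of 6 blood and immune markers in eggs were 1.47 to 1.77 in Cnot6l-/-, 1.06 to 1.82 in the group labelled Btg4-/- and 0.54 to 0.97 in WT, with both haemoglobin genes at 0. Their part in the results was not tested.

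**Figure D3:**
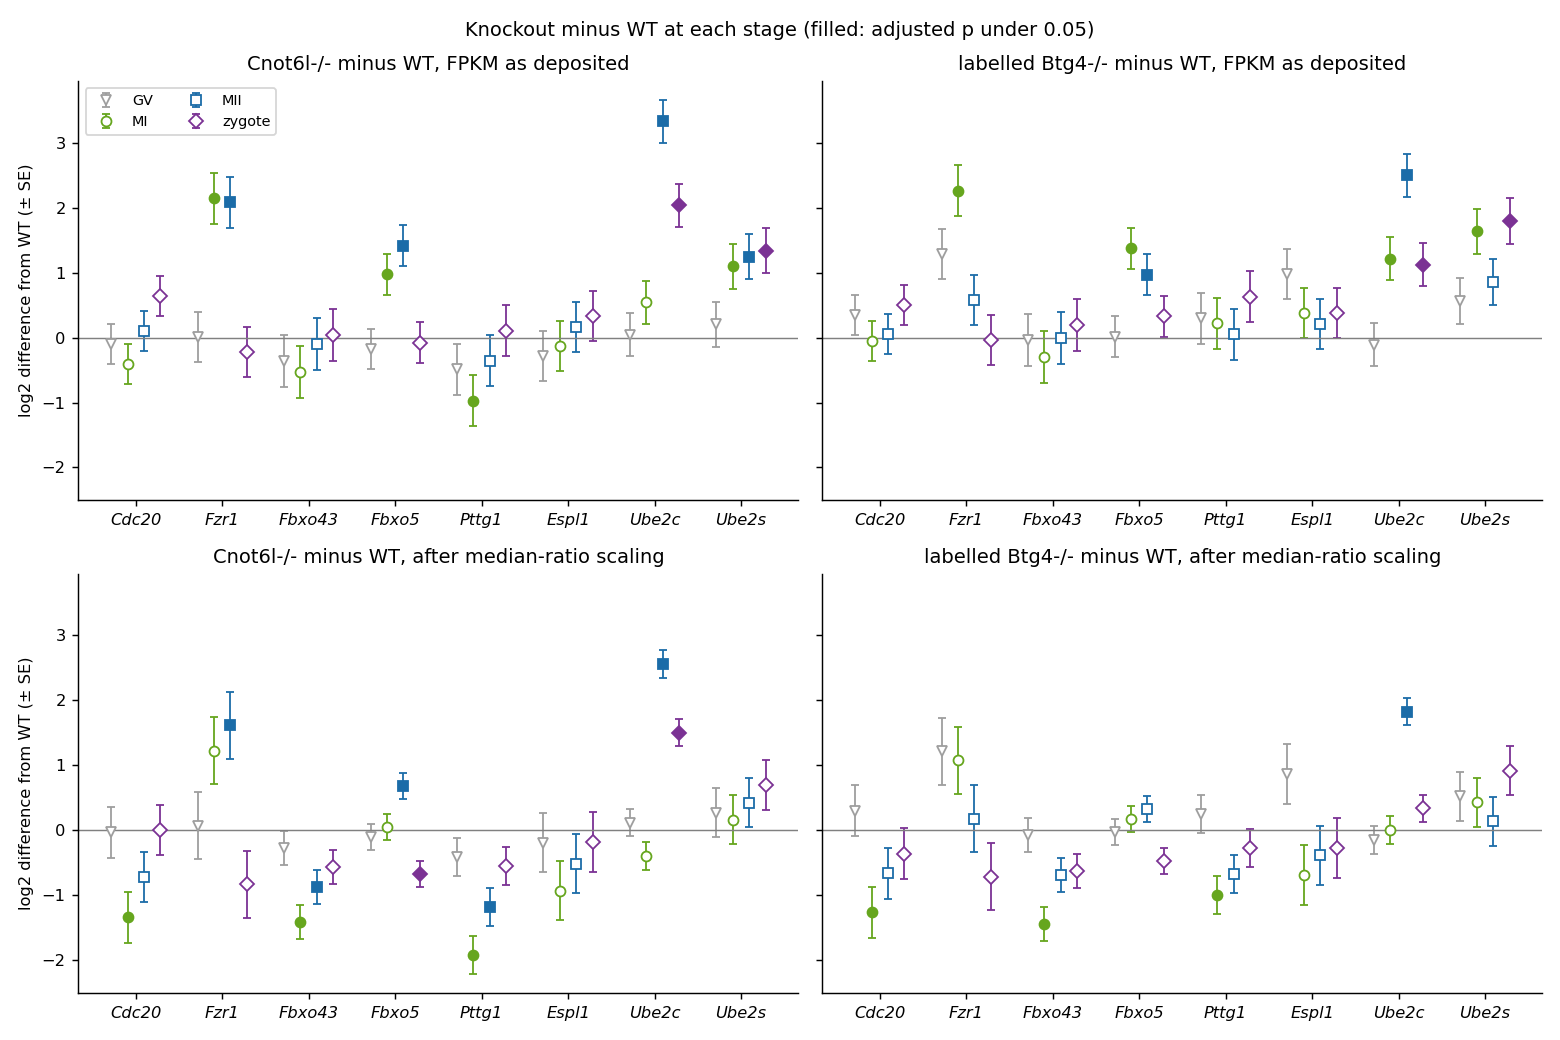
Log2 difference from WT of FPKM + 1 (± SE, 2 libraries a group) for each gene at GV, MI, MII and in zygotes, for Cnot6l-/- on the left and the group labelled Btg4-/- on the right, as deposited above and after median-ratio scaling below, with filled symbols for adjusted p under 0.05. Ube2c at MII stood at 3.33 and 2.49 as deposited and remained called after scaling at 2.56 and 1.83, while Cdc20, Fbxo43 and Pttg1 were called below 0 at MI in both knockouts after scaling, Pttg1 in the group labelled Btg4-/- having stood above 0 as deposited.

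Whether the genotypes differed in their change since GV was tested as an interaction of genotype and stage. In Cnot6l-/- the change to MI was higher than in WT for Fzr1 (2.14 ± 0.55 SE, adjusted p = 0.0045) and Fbxo5 (1.15 ± 0.45 SE, adjusted p = 0.045), 2 of 8 genes beside 44.4% of all genes. The Fbxo5 call rested on 14 of 24 libraries, and was lost without WT GV library 1, WT MI library 3, WT MII libraries 1 or 2, Cnot6l-/- GV libraries 1 or 2, Cnot6l-/- MI libraries 2 or 3, Cnot6l-/- MII libraries 1 or 2, Btg4-/- GV libraries 1 or 2 or Btg4-/- MI libraries 2 or 3 (0.96 to 1.22, adjusted p = 0.05 to 0.16). For the change to MII it was higher for Fzr1 (2.07 ± 0.55 SE, adjusted p = 0.01), Fbxo5 (1.59 ± 0.45 SE, adjusted p = 0.015) and Ube2c (3.28 ± 0.46 SE, adjusted p = 8.7e-05), 3 of 8 beside 24.1%. The call for Fzr1 was lost without Cnot6l-/- GV library 1 (1.71, adjusted p = 0.062), and that for Fbxo5 without WT GV library 1, WT MII library 1, Cnot6l-/- GV library 1 or Cnot6l-/- MII library 1 (1.44 to 1.52, adjusted p = 0.053 to 0.062). To the zygote only Ube2c passed (1.99 ± 0.46 SE, adjusted p = 0.018; 3.09% of all genes), a call lost without WT GV library 1, WT zygote library 2, Cnot6l-/- GV library 1 or Cnot6l-/- zygote library 2 (1.61 to 1.92, adjusted p = 0.067 to 0.098). For the group labelled Btg4-/-, Fbxo5 (1.36 ± 0.45 SE, adjusted p = 0.02) and Ube2c (1.32 ± 0.46 SE, adjusted p = 0.028) were higher at MI (45.4%), and Ube2c at MII (2.60 ± 0.46 SE, adjusted p = 0.0012; 13.3%). None of the 8 passed for the change to the zygote in that group, although at an unadjusted p under 0.05 Ube2c and Ube2s were higher and Fzr1 lower (10.4% higher and 0.956% lower among all genes). The MI calls were lost, for Fbxo5 without WT GV library 1, WT MI library 3, Btg4-/- GV library 1 or Btg4-/- MI library 3 (1.17 to 1.26, adjusted p = 0.058 to 0.085), and for Ube2c without WT GV library 1, WT MI library 3, Btg4-/- GV library 1 or Btg4-/- MI library 3 (1.14 to 1.26, adjusted p = 0.08 to 0.097). After scaling the 3 later Ube2c results held. They were 2.44 (adjusted p = 7.7e-05; 15% of all genes higher) and 1.39 (adjusted p = 0.014; 2.15%) in Cnot6l-/- and 1.97 (adjusted p = 0.00038; 12.4%) in the libraries labelled Btg4-/-. The other 6 did not pass after scaling, with values of 0.15 to 1.54. Fbxo43 and Pttg1, not called as deposited, were then lower at MI, at -1.14 (adjusted p = 0.038) and -1.50 (adjusted p = 0.017) in Cnot6l-/- and at -1.37 (adjusted p = 0.014) and -1.26 (adjusted p = 0.039) in the libraries labelled Btg4-/- (2.52% and 4.72% of all genes).

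Set against each other, the knockouts differed in few of these genes. At GV Fzr1 (-1.28 ± 0.39 SE, adjusted p = 0.03) and Espl1 (-1.27 ± 0.38 SE, adjusted p = 0.03) were lower in Cnot6l-/- than in the group labelled Btg4-/- (12.4% of all genes), and none was higher (5.85%). Both calls were lost without Cnot6l-/- GV library 1 or Btg4-/- GV library 1, with log2 differences of -0.92 to -0.87 for Fzr1 and -1.0 to -0.95 for Espl1 (adjusted p = 0.26 to 0.33). At MI none passed, with Pttg1 lower at an unadjusted p under 0.05 (3.59% higher and 6.46% lower), and in zygotes none passed, with Ube2c higher at an unadjusted p under 0.05 (1.71% higher and 12.8% lower). At MII Fzr1 was higher in Cnot6l-/- (1.51 ± 0.39 SE, adjusted p = 0.015; 11% of all genes), a call lost without Cnot6l-/- MII libraries 1 or 2 or Btg4-/- MII library 1 (1.29 to 1.61, adjusted p = 0.062 to 0.11). The Ube2c difference at MII was 0.83 ± 0.33 (SE, adjusted p = 0.12) as deposited and 0.73 (adjusted p = 0.024) after scaling, and in zygotes 0.91 ± 0.33 (SE, adjusted p = 0.075) as deposited and 1.17 (adjusted p = 0.00086) after scaling. The Fzr1 and Espl1 calls at GV and the Fzr1 call at MII did not pass after scaling.

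Apart from the pseudocount of 0.1 added to both, a ratio of 2 genes in the same library does not depend on how libraries were scaled. The ratio of Cdc20 to Fzr1 FPKM shows which co-activator transcript prevailed. At GV it was 2.96 and 2.37 in Cnot6l-/-, 1.08 and 1.94 in the libraries labelled Btg4-/- and 2.72 and 2.99 in WT. At MI it was 1.13 and 1.06 in Cnot6l-/-, 1.18 and 1.4 in the libraries labelled Btg4-/- and 7.05 and 6.53 in WT, so WT oocytes held several times more Cdc20 than Fzr1 while the knockouts held about equal levels. At MII it was 5.02 and 4.26 in Cnot6l-/-, 20.9 and 13.4 in the libraries labelled Btg4-/- and 30.3 and 31.9 in WT, with WT above both knockouts. In zygotes it was 30.1 and 13.3 in Cnot6l-/-, 17.8 and 10.6 in the libraries labelled Btg4-/- and 11.3 and 7.75 in WT, and the order was not kept. Averaged over the 4 stages the log2 ratio differed from WT by -1.08 in Cnot6l-/- and by -0.91 in the group labelled Btg4-/- (exact two-sided permutation within stages, p = 0.048 and 0.037, adjusted p = 0.072 for both over 6 ratio tests). Neither passed after adjustment. The smallest p that these permutations can give is 0.0015.

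The ratio of Fbxo43 to Fbxo5, the meiotic over the mitotic inhibitor, was 0.197 and 0.14 in Cnot6l-/-, 0.205 and 0.163 in the libraries labelled Btg4-/- and 0.197 and 0.184 in WT at GV. At MI it was 0.238 and 0.264 in Cnot6l-/-, 0.244 and 0.205 in the libraries labelled Btg4-/- and 0.777 and 0.684 in WT. At MII it was 0.673 and 0.416 in Cnot6l-/-, 0.998 and 0.626 in the libraries labelled Btg4-/- and 2.25 and 1.28 in WT. WT lay above both knockouts at MI and MII, without overlap, and Fbxo43 exceeded Fbxo5 in both WT eggs and in no other library of these stages. In zygotes it was 1.48 and 1.17 in Cnot6l-/-, 1.17 and 0.985 in the libraries labelled Btg4-/- and 1.13 and 1.28 in WT. Over the 4 stages the log2 ratio differed from WT by -0.82 in Cnot6l-/- (exact permutation p = 0.023, adjusted p = 0.069) and by -0.75 in the group labelled Btg4-/- (exact permutation p = 0.011, adjusted p = 0.065), which did not pass either. Pttg1 exceeded Espl1 in every library, by 197-fold to 1903-fold. That log2 ratio differed from WT by -0.47 in Cnot6l-/- and by -0.28 in the group labelled Btg4-/- (exact permutation p = 0.077 and 0.27, adjusted p = 0.093 and 0.27). In Cnot6l-/- it passed without WT zygote library 2, at -0.69 (exact permutation, adjusted p = 0.046).

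**Figure D4:**
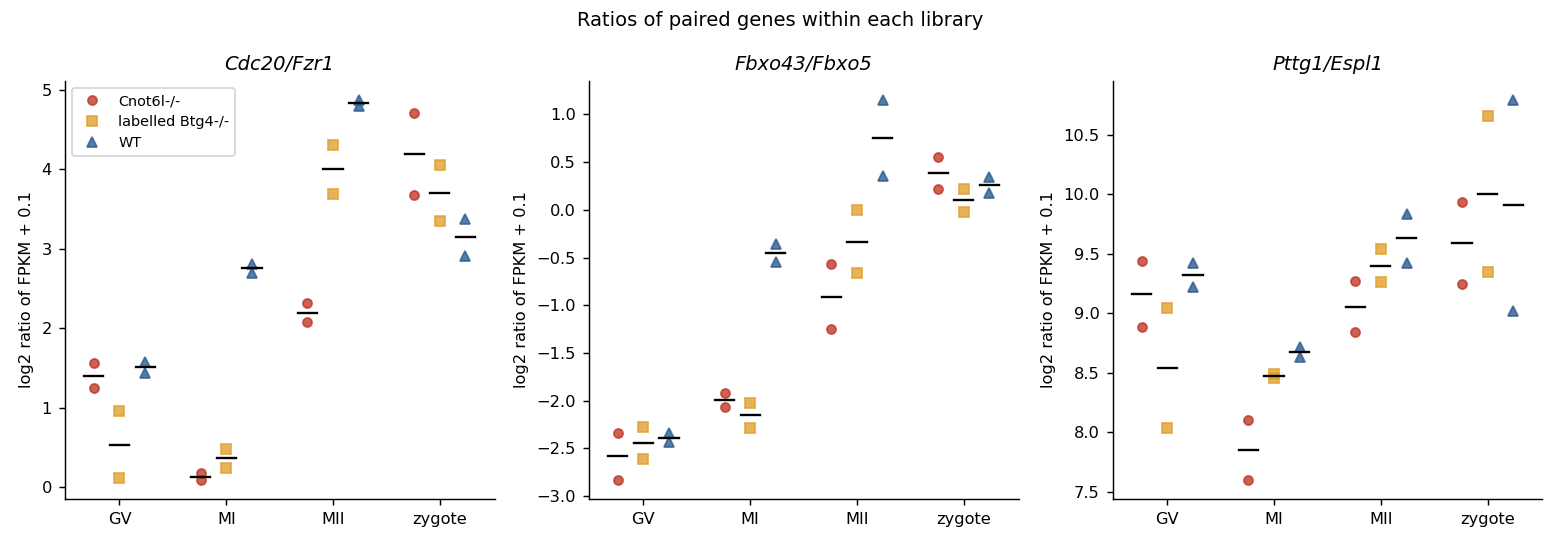
Log2 ratio of FPKM + 0.1 within each library for Cdc20 over Fzr1, Fbxo43 over Fbxo5 and Pttg1 over Espl1, at GV, MI, MII and in zygotes, with Cnot6l-/- as circles, libraries labelled Btg4-/- as squares and WT as triangles (black bars are means of 2 libraries). At MI the Cdc20/Fzr1 ratio was 1.13 and 1.06 in Cnot6l-/- and 7.05 and 6.53 in WT on the linear scale.

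The genes around this set were read from lists of textbook members, beside the shares of all genes called. In WT 83.4% of all genes were lower at MII than at GV, and 43.2% were lower and 14.9% higher after scaling. Against WT, 60.3% of all genes were higher at MI in Cnot6l-/- and 68.7% in the libraries labelled Btg4-/- (medians 0.87 and 0.99), and 44.3% and 28.3% at MII (medians 0.56 and 0.38). After scaling 35.8% and 32.5% were higher and 11% and 9.82% lower at MI (medians 0.28 and 0.22), and 34.3% and 21.8% were higher and 8.69% and 6.55% lower at MII (medians 0.29 and 0.14). The counts of the lists are read against these shares, and none was tested for a difference from them.

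Of the APC/C core subunits, WT had 13 of 14 lower and 0 higher at MII than at GV (median -2.39; 83.4% of all genes lower), and 7 lower and 2 higher after scaling (median -0.80), beside medians of -1.37 and -0.37 over all genes. The lowest was 3200002M19Rik, the older symbol of Anapc15 (-4.36, adjusted p = 1.2e-08), whose product promotes release of the checkpoint from the APC/C. At MI, 8 of 14 were higher and 0 lower than in WT in Cnot6l-/- (median 0.76; 60.3% of all genes higher), and 8 and 0 in the group labelled Btg4-/- (median 0.88; 68.7% of all genes higher). These counts were, after scaling, 5 and 4 (median -0.10), and 5 and 2 (median -0.28). Anapc2, the cullin subunit, was the highest in Cnot6l-/- (2.11, adjusted p = 4.7e-07), and Anapc7 in the group labelled Btg4-/- (2.67, adjusted p = 2.1e-07). At MII, 7 of 14 were higher and 0 lower than in WT in Cnot6l-/- (median 0.76; 44.3% of all genes higher), and 6 and 0 in the group labelled Btg4-/- (median 0.57; 28.3% of all genes higher). Scaled counts were 4 and 1 (median 0.23), and 4 and 0 (median 0.02).

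Of the spindle checkpoint genes, whose products restrain CDC20 until chromosomes are attached, WT had 9 of 10 lower and 0 higher at MII than at GV (median -2.58; 83.4% of all genes lower), and 6 lower and 1 higher after scaling (median -1.12). The checkpoint kinase gene Ttk fell most (-4.17, adjusted p = 2.6e-08). At MI, 6 of 10 were higher and 0 lower than in WT in Cnot6l-/- (median 1.22; 60.3% of all genes higher), and 7 and 0 in the group labelled Btg4-/- (median 1.22; 68.7% of all genes higher). After scaling these counts were 4 and 2 (median 0.43), and 3 and 0 (median 0.20). Ttk was the highest in Cnot6l-/- (2.55, adjusted p = 1.7e-05) and in the libraries labelled Btg4-/- (2.97, adjusted p = 2.9e-06). At MII, 6 of 10 were higher and 0 lower than in WT in Cnot6l-/- (median 0.97; 44.3% of all genes higher), and 5 and 0 in the group labelled Btg4-/- (median 0.72; 28.3% of all genes higher). These counts were, after scaling, 4 and 0 (median 0.52), and 4 and 0 (median 0.18). The highest at MII were Bub3 in Cnot6l-/- (2.18, adjusted p = 7.8e-05) and Bub1 in the group labelled Btg4-/- (2.72, adjusted p = 0.00049).

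Of 12 genes for substrates of the APC/C, such as the cyclins and Aurora kinases, WT had 9 of 12 lower and 0 higher at MII than at GV (median -1.46; 83.4% of all genes lower), and 3 lower and 3 higher after scaling (median 0.36). At MI, 4 of 12 were higher and 0 lower than in WT in Cnot6l-/- (median 0.43; 60.3% of all genes higher), and 6 and 0 in the group labelled Btg4-/- (median 0.65; 68.7% of all genes higher). Scaled counts were 2 and 5 (median -0.46), and 2 and 5 (median -0.44). Nek2, a centrosomal kinase gene, led in both knockouts (3.95 in Cnot6l-/- and 4.05 in the libraries labelled Btg4-/-, adjusted p = 2.8e-08 and 1.7e-08). At MII, 5 of 12 were higher and 0 lower than in WT in Cnot6l-/- (median 0.49; 44.3% of all genes higher), and 2 and 0 in the group labelled Btg4-/- (median 0.33; 28.3% of all genes higher). After scaling these counts were 2 and 3 (median -0.32), and 2 and 1 (median -0.37). Aurkb, the kinase gene of the chromosomal passenger complex, was the highest (2.07 in Cnot6l-/- and 1.83 in the libraries labelled Btg4-/-, adjusted p = 5.1e-06 and 3.9e-05).

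Of the genes for MII arrest and its release, 10 of 11 were tested, and WT had 8 of 10 lower and 0 higher at MII than at GV (median -1.54; 83.4% of all genes lower), and 4 lower and 2 higher after scaling (median -0.15). Cdk1, the kinase gene that cyclin B activates, was the lowest (-5.93, adjusted p = 6.6e-10). At MII, 4 of 10 were higher and 0 lower than in WT in Cnot6l-/- (median 0.64; 44.3% of all genes higher), and 4 and 0 in the group labelled Btg4-/- (median 0.55; 28.3% of all genes higher). These counts were, after scaling, 4 and 1 (median -0.04), and 3 and 2 (median 0.33). Mapk3, which encodes a MAP kinase, led as deposited in Cnot6l-/- (2.87, adjusted p = 1.8e-06) and in the libraries labelled Btg4-/- (2.2, adjusted p = 5.8e-05). Of the genes for cohesin and its protectors, the targets and guardians of separase cleavage, 6 of 9 were tested and WT had 4 of 6 lower and 0 higher at MII than at GV (median -1.06; 83.4% of all genes lower), and 1 lower and 3 higher after scaling (median 0.63). At MII, 1 of 6 was higher and 0 lower than in WT in Cnot6l-/- (median 0.18; 44.3% of all genes higher), and 1 and 0 in the group labelled Btg4-/- (median 0.38; 28.3% of all genes higher). Scaled counts were 0 and 3 (median -0.60), and 1 and 0 (median -0.24). Smc1a was the highest in Cnot6l-/- (0.70, adjusted p = 0.017) and in the libraries labelled Btg4-/- (1.20, adjusted p = 0.00062).

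Among themselves the genes formed similar pairs. Over the 12 group means of log2(FPKM + 1), Pearson's r was 0.98 between Cdc20 and Fbxo43 and 0.95 between Fzr1 and Fbxo5. After scaling these were 0.92 and 0.91, whereas Cdc20 and Fzr1 went with r = 0.88 as deposited and 0.10 after scaling, and Fbxo43 and Fbxo5 with 0.88 and -0.16. Espl1 went with Cdc20 (0.93 as deposited and 0.83 after scaling) and Fbxo43 (0.89 and 0.74). Ube2c went with Fbxo5 (0.91 and 0.72) and Fzr1 (0.84 and 0.62). The points share their libraries and the lower FPKM of most genes at later stages. Among 6392 genes averaging 5 FPKM or more in some group, the patterns most like each gene were those of Dcaf12 and Cybasc3 for Cdc20 (r = 0.99 each) and of Aspscr1 and Sgsm1 for Fzr1 (r = 0.996 and 0.992). They were those of Birc3 and Sgol2, a protector of centromeric cohesin, for Fbxo43 (r = 0.98 each) and of Calr for Fbxo5 (r = 0.99). For Pttg1 they were Acadl and Sh3bp2, with the lowest likeness (r = 0.91 and 0.90), and for Espl1 they were Csf1 and Rnf215 (r = 0.99 each). For Ube2c they were Ndufa5 and Tspan3 (r = 0.99 each) and for Ube2s they were Banf1 and Hscb (r = 0.97 each).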

How the data were processed

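RNA-seq libraries of mouse oocytes and zygotes were deposited as 1 table of FPKM per gene and library. Reads were handled by the authors with CASAVA 1.8, TopHat2 2.0.11, Bowtie2 2.1.0 and Cufflinks 2.2.1 on mm9, per the submitters' processing notes. The annotation, the filters and how libraries were scaled to each other are not given in the sources used here. Read depth is unknown, so no counting interval is given, and low FPKM are less certain than high ones. Files holding 1 library each were left aside, because 6625 of 23235 lines in each lacked the expected 7 fields and the other lines repeat the series table. Columns were tied to samples by name; the MI columns carry the numbers 2 and 3 and the titles of those samples 1 and 2, so each was assigned to its group only.

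From the deposited FPKM, log2(FPKM + 1) was fitted in limma 3.58.1 (R 4.3.3) with 1 mean for each of 12 groups, 12 residual degrees of freedom and a mean-dependent prior (eBayes with trend). The tests were two-sided. Genes averaging 1 FPKM or more in any of the 12 groups were tested (10884), and p-values were adjusted by Benjamini-Hochberg within each contrast. Fold changes on this scale understate the change of low genes. The p-values measure the spread between libraries, which may be technical. Ratios of 2 genes used a pseudocount of 0.1 and an exact two-sided permutation of genotypes within stages, with Benjamini-Hochberg adjustment over 6 tests. The fit was tested on simulated data with known changes. Alternatives were a pseudocount of 0.1 for the fit and of 1 for the ratios, no filter, median-ratio scaling (9823 genes tested), only the libraries compared, the library number as a block, the ratios without GV, and leaving out each library in turn.

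The 8 genes and all gene lists were chosen with earlier results of these data known. The text names all 8 genes, the highest or lowest gene of each list by log2 change, the 2 genes most like each of the 8 over the 12 group means among genes averaging 5 FPKM or more in some group, and Cnot6l and Btg4. One gene that this rule names is not reported here. Target sites were read from mm9 with the GENCODE M1 annotation.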

Additional observations from a re-analysis of the deposited data

Results flagged for a closer look

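Of 48 tests of whether a gene's change since GV differed between a knockout and WT, 9 passed as deposited by limma with Benjamini-Hochberg adjustment. All 9 were positive, so the change in the knockout lay above that in WT. For Fzr1 from GV to MI it was 1.51 in Cnot6l-/- beside -0.63 in WT, and the others were smaller falls in the knockout. The shares of all genes higher in the same tests were 44.4%, 24.1% and 3.09% at MI, MII and in zygotes of Cnot6l-/-, and 45.4%, 13.3% and 10.4% in the libraries labelled Btg4-/-. In Cnot6l-/- against WT, the change to MI differed by 2.14 for Fzr1 and 1.15 for Fbxo5 on the log2 scale. The change to MII differed by 2.07 for Fzr1, 1.59 for Fbxo5 and 3.28 for Ube2c, and the change to the zygote by 1.99 for Ube2c. In the group labelled Btg4-/- against WT, the change to MI differed by 1.36 for Fbxo5 and 1.32 for Ube2c, and the change to MII by 2.60 for Ube2c. At MII the Ube2c values of both libraries of each knockout lay above both WT libraries. After scaling 3 of the 9 passed, those of Ube2c at MII in both knockouts and in Cnot6l-/- zygotes. The scaled shares of all genes higher were 15% at MII and 2.15% in zygotes of Cnot6l-/-, and 12.4% at MII in the libraries labelled Btg4-/-. On that scale the change of Fbxo43 and Pttg1 to MI differed from WT by -1.14 and -1.50 in Cnot6l-/- and -1.37 and -1.26 in the libraries labelled Btg4-/-.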

How the results depend on the processing

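Of 240 tests of a single gene in a contrast, 91 passed as deposited or after median-ratio scaling, and only these 91 results were followed here. As deposited 68 passed. Of these, 27 also passed with the same sign after median-ratio scaling and 7 changed sign. Leaving out 1 library ended 27 of them. The other settings reversed none of the 91. Without the filter 4 no longer passed, with a pseudocount of 0.1 6, and with only the libraries compared 9, while 2 were added.

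After scaling, the stage contrasts gave 3 higher calls in Cnot6l-/- (1 as deposited), 1 higher and 5 lower in the group labelled Btg4-/- (0 and 13 as deposited) and 7 higher and 6 lower in WT (0 and 14). Against WT there were 4 higher and 6 lower calls in Cnot6l-/- (9 and 1) and 1 higher and 3 lower in the group labelled Btg4-/- (8 and 0). Between the knockouts there were 2 higher and 0 lower in Cnot6l-/- (1 and 2). The change since GV gave 2 higher and 2 lower in Cnot6l-/- (6 and 0) and 1 higher and 2 lower in the group labelled Btg4-/- (3 and 0). The cause was not tested.

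With a pseudocount of 0.1 the higher stage call in Cnot6l-/- and the 2 lower calls between the knockouts became 0 each. Lower calls in Cnot6l-/- against WT numbered 0 without the filter and 2 with only the libraries compared, a setting that gave 0 higher and 7 lower calls between the knockouts.

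Among the 91 results, signs turned after scaling in WT for Pttg1 from GV to MI (0.75) and, from GV to MII, for Cdc20 (0.99), Fbxo43 (0.90), Pttg1 (1.37) and Ube2s (0.0746). In Cnot6l-/- that of Ube2c from GV to MII turned (0.13). In the group labelled Btg4-/- those of Fbxo43 (0.0417), Pttg1 (0.95) and Espl1 (0.0055) turned from MI to MII, that of Cdc20 from GV to MII (0.0271), and that of Pttg1 against WT at MI (-1.0).

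Leaving out 1 library at a time gave 0 to 1 higher stage calls in Cnot6l-/-, 0 to 1 lower calls in Cnot6l-/- against WT, and 0 to 2 higher and 0 to 3 lower between the knockouts. For the change since GV it gave 2 to 6 higher calls in Cnot6l-/-, and 1 to 4 higher and 0 to 1 lower in the group labelled Btg4-/-. Among the 91 results, some differences as deposited crossed 0. None of these was called as deposited, and all were called after scaling. They were those of Espl1 from GV to MI in WT (-0.12 to 0.36) and Ube2c from MI to MII in Cnot6l-/- (-0.0834 to 0.0945). Against WT they were Fbxo43 and Pttg1 in Cnot6l-/- eggs (-0.53 to 0.34 and -0.75 to 0.034), Fbxo5 in Cnot6l-/- zygotes (-0.54 to 0.38), and Cdc20 and Pttg1 at MI in the group labelled Btg4-/- (-0.28 to 0.16 and -0.0903 to 0.53). For the change from GV to MI they were Fbxo43 in Cnot6l-/- (-0.45 to 0.10) and in the group labelled Btg4-/- (-0.53 to 0.0186), and Pttg1 in that group (-0.38 to 0.24). Ratio differences passed without some libraries, among them WT zygote library 2. They ranged from -1.21 to -0.95 and -1.02 to -0.81 for Cdc20 over Fzr1 in Cnot6l-/- and the group labelled Btg4-/-, from -0.92 to -0.72 and -0.85 to -0.65 for Fbxo43 over Fbxo5, and from -0.69 to -0.25 for Pttg1 over Espl1 in Cnot6l-/-. With a pseudocount of 1, or without GV, none passed (adjusted p = 0.059 to 0.56).

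Libraries of different groups share numbers. Over 36 pairs of groups, MI left out, the deviations of same-numbered libraries correlated at -0.307 to 0.706. Of these, 28 pairs exceeded 0.1, the lowest at 0.276, while each of the other 8 involved the GV group labelled Btg4-/-. No label ties the numbers and not all pairs exceeded 0.1, so the main fit did not pair libraries by number. A batch shared by number was thus left in its spread. In the block setting the MI libraries were assigned to neither number. With the number as a replicate block, lower stage calls numbered 15 in Cnot6l-/- (10 without the block), 14 in the group labelled Btg4-/- (13) and 17 in WT (14), the group labelled Btg4-/- had 10 higher calls against WT (8), and 1 of the 91 results was added (Ube2c from GV to MI in Cnot6l-/-, -0.90, adjusted p = 0.037).

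The main limits are 2 libraries a group, an unknown read depth and the unknown scaling of FPKM between libraries. Sums of FPKM differ by stage, so a change as deposited and a change after scaling are different measurements. How either relates to transcripts per oocyte is not known, and median-ratio scaling takes out a shift shared by most of the genes it uses. The FPKM of Ube2s are uncertain because of its near-identical copy.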
